A study of Mus musculus with 12 samples.

Results

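The autosomal genes of 2 hybrid mouse embryonic stem (ES) cell lines were compared for the allele they were read from: the female line F1-21.6 (XX) and the male line F1-23 (XY). Of 14899 features in the deposited table, 14415 were autosomal and 11746 had at least 20 allele-assigned counts in both ES libraries; these are the genes described here. A further 1981 autosomal features were under 20 counts in both libraries, 256 reached 20 in the XX library only and 432 in the XY library only. Both lines carry 1 genome of 129Sv and 1 of Cast/EiJ, so that a read over a base that differs between the strains can be assigned to its allele. The ES cells grew on mitomycin C-inactivated mouse embryonic fibroblast (MEF) feeder layers in medium with serum and LIF, and each line is 1 library with no replicate. The study also sequenced neural progenitor cell (NPC) clones differentiated from these lines, 4 from the XX line and 4 from the XY line, which carry the same hybrid genomes and serve here as a second cell type. All libraries were made from polyadenylated RNA and read as paired ends on a HiSeq 2000.

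Most autosomal genes are transcribed from both copies. Reads of some genes come mostly from 1 copy. A sequence difference between the strains should give the same allele in each hybrid, in the cell types where it acts. Genomic imprinting instead follows the parent of origin through DNA methylation laid down in the egg or the sperm. A clonal state follows neither the strain nor the parent. ES cells are known to lose and gain methylation in culture, and the loss is known to be wider in XX lines than in XY lines. DNA methylation was not analysed here.

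The total of allele-assigned counts was 61375911 in the XX ES library and 65171172 in the XY ES library, and across all 10 libraries it lay between 61375911 and 119266777. The median autosomal gene had 1011 counts in the XX ES library and 1096 in the XY ES library, and the median share of counts from the 129Sv allele (129 share) was 49.9% and 50%. In the XY ES line, 400 X-linked genes had at least 20 counts, with a median Cast share of 0% and only 5 genes above 15%. Its single X was therefore the 129Sv copy, and since a male receives its X from its mother, the 129Sv genome is the maternal one in the XY line. The parent of each genome in the XX line is not given in the sources used here.

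The ES markers that were measured stood above all NPC clones in both lines. The FPKM (fragments per kilobase of transcript, scaled to the depth of the library) of Sox2 was 248 in the XX ES library and 217 in the XY ES library, that of Esrrb 227 and 187, and that of Klf2 125 and 121, against 45.9 to 94.3, 0.486 to 1.9 and 0.393 to 1.87 in the NPC clones. Of 13 listed ES marker symbols 6 were in the table, and Pou5f1, Nanog and Zfp42 were not analysed here. The neural markers Olig2 and Fabp7 were listed at 0 in the XX ES library and at 0 and 0.0295 FPKM in the XY ES library. Of the others on that list, Nes had 2.47 FPKM in the XX ES library and 13.1 in the XY ES library, Sox1 0.851 and 0.505, and Bcan 0.159 and 0.285, where the NPC medians were 252, 0.604 and 317.

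The promoters of 4 genes are shown because the allele results below turn on their genes. They are the 300 bases around 1 start each of Peg3, Mest and Snrpn, which are transcribed from the paternal copy in mice, and of Meg3, which is transcribed from the maternal copy. The sequences are from RefSeq on GRCm38.p6, which is not the build of the count table, and run 5′ to 3′ on the strand of the gene. Capitals mark TGCCGC or its reverse complement GCGGCA, the core that the imprint-protecting zinc-finger protein ZFP57 binds when it is methylated. The Peg3 window is chr7:6730370-6730669 on the minus strand, that of Mest chr6:30737800-30738099 on the plus strand, that of Snrpn chr7:60005150-60005449 on the minus strand and that of Meg3 chr12:109540746-109541045 on the plus strand.
Peg3: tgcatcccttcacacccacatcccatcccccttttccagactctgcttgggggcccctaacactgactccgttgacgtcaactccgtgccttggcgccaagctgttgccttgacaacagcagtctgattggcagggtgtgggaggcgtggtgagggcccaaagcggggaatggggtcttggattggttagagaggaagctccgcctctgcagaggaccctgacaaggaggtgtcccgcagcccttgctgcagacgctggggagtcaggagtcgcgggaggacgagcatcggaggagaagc
Mest: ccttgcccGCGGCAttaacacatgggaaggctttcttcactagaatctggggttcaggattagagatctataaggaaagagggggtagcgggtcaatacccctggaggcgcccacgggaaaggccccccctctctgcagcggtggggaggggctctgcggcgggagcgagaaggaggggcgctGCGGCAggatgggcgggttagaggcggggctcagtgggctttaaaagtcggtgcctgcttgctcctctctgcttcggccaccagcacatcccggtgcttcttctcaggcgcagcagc
Snrpn: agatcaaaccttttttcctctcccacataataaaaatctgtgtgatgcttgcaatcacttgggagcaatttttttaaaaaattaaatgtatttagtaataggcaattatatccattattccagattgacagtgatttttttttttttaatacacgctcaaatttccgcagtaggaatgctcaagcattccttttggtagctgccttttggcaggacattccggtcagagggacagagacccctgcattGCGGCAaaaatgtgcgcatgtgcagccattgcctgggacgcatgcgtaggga
Meg3: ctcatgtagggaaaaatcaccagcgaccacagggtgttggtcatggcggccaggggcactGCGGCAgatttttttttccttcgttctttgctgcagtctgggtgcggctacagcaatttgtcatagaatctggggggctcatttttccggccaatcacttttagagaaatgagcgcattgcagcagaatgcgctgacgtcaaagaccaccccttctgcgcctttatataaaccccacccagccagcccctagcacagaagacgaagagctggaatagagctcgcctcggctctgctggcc
The core occurred 2 times in the Mest window, 1 time in those of Snrpn and Meg3, and not in that of Peg3. RefSeq lists 3 starts each for Mest and Snrpn and 2 for Meg3, and the core was in the windows of 2 Mest starts, 1 Snrpn start and 1 Meg3 start. The windows shown were chosen after these matches were seen. Across all 32544 mouse promoters of this length, 11.7% held it on either strand. Of the 48 imprinted genes measured here, 40 matched the promoter table with 62 promoters, of which 15 held the core, in 14 genes. The windows held 13, 17, 7 and 13 CpG pairs in the order printed, against a median of 16 in the imprinted promoters and 7 in all promoters. A match is a string in this window and says nothing about binding.

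Allele use was close to equal and alike in the 2 lines for most genes. In each library a gene was called monoallelic where 1 allele held at least 85% of its counts and equal use was rejected by an exact binomial test at 0.05 after Benjamini-Hochberg (BH) adjustment, and biallelic where the larger share was at most 70%. Of the 11746 genes, 9609 (81.8%) were biallelic in both lines. The same allele was monoallelic in both lines for 267 genes: 164 (1.4%) read from 129Sv and 103 (0.877%) from Cast. A further 163 genes (1.39%) were monoallelic in the XX line and biallelic in the XY line, 95 (0.809%) were monoallelic in the XY line and biallelic in the XX line, and 6 (0.0511%) were monoallelic for opposite alleles. The remaining genes had an intermediate share in at least 1 line, 269 of them beside a monoallelic call in the other. These classes are descriptions of 1 library each.

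The line-specific classes were made mostly of weakly covered genes. The lower of the 2 ES counts had a median of 59 in the XX-only class and 48 in the XY-only class, against 122 in the shared 129Sv class, 71 in the shared Cast class and 2190 in the genes biallelic in both lines. With at least 500 counts in both libraries, 41 genes stayed in the shared 129Sv class, 23 in the shared Cast class, 7 in the XX-only class and 9 in the XY-only class. The 129 shares of the 2 lines correlated across genes with Pearson's r = 0.647 and Spearman's rho = 0.614 (n = 11746 genes), and with r = 0.791 and rho = 0.71 over the 8345 genes with at least 500 counts. Genes are not independent replicates, and both libraries share their reference and their sites, so these are descriptions.

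**Figure D1:**
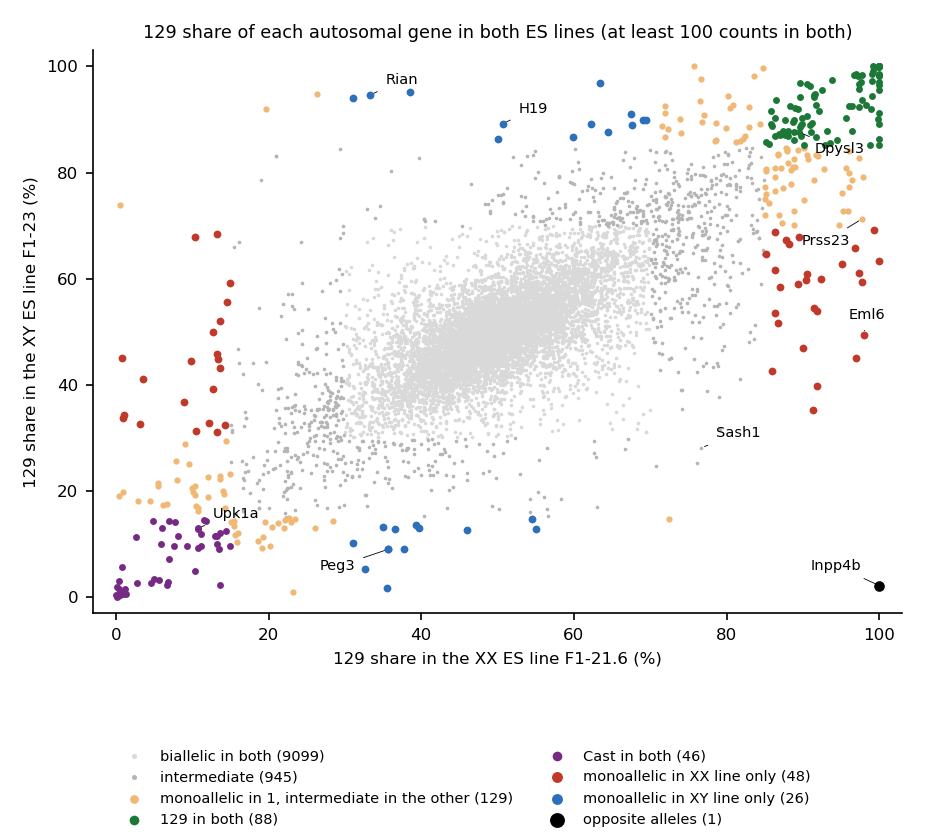
129 share in percent of each autosomal gene with at least 100 counts in both ES libraries, with the XX line on the horizontal and the XY line on the vertical axis, 1 point a gene and the classes in colour. Most of the points lie near 50% in both lines, the 88 and 46 genes of the shared classes lie in the corners of the diagonal, and the 48 and 26 line-specific genes lie along the edges.

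The absolute difference in 129 share between the lines had a median of 16.7 points among the 691 genes whose lower count was 20 to 49, where binomial counting alone would give 6.53 points. It was 2.55 points among the 5295 genes with at least 2000 counts, where counting would give 0.613. Differences over 20 points occurred in 44.7% of genes in the lowest range and in 0.359% in the highest. The medians of the chromosomes lay between 49.7% and 50.2% in both lines, so no autosome as a whole was read from 1 genome. The genes at the limit of 20 counts show how little such depths resolve. Just inside it, Camk2n1 had a 129 share of 100% in both lines from 27 counts in the XX line and 20 in the XY line, and Popdc3 had 43.6% and 60%. Just outside it, with 19 counts in the XX line, Cdh26 had 5.26% there and 100% in the XY line, and Bmp2 had 36.8% and 34.9%.

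The best covered genes skewed to 129Sv in both lines fell into those that kept the skew in NPC clones and those that did not. Rps19 (chr7:25669733-25674821 on mm9, as are all coordinates from here on), which encodes a protein of the small ribosomal subunit, had a 129 share of 99.8% in XX ES cells and 99.9% in XY ES cells, with 17828 and 16868 counts. Across the 8 NPC clones it had 99.5 ± 0.158% (SD, n = 8). Gnpda1 (chr18:38487191-38508389), a glucosamine-6-phosphate deaminase, had 85.5% (95% exact interval 85 to 86.0) in XX ES cells and 85.3% (84.6 to 85.9) in XY ES cells. These shares lay within the range of the NPC clones, which ran from 84.6% to 95%. Asnsd1 (chr1:53401488-53409543), which holds an asparagine synthetase domain, had 87.6% in the XX line and 87.1% in the XY line, and 84.8 ± 1.90% in NPC clones (SD, n = 8). The snoRNA host gene Snhg8 and the ribosomal gene Rps3a were likewise high in all libraries, with NPC means of 94.8% and 94.0%.

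Dpysl3, Nek3 and Prex2 were skewed to 129Sv in both ES lines and not in the NPC clones as a group. The ES cells grew on feeders, and the part of feeder RNA in these and the other ES shares was not tested. Dpysl3 (chr18:43480647-43598107), a cytosolic phosphoprotein of growing axons, had 89.5% (95% exact interval 88.7 to 90.3) in XX ES cells and 87.6% (86.8 to 88.3) in XY ES cells. In NPC clones it had 64.0, 33.8, 62.5 and 55.5% in the XX set and 62.3, 67.1, 48.5 and 37.4% in the XY set. All clones therefore lay below both ES libraries. Nek3 (chr8:23238755-23276907), a kinase of the NIMA family, had 90.5% in XX ES cells and 90.6% in XY ES cells, against 42.6 to 66.3% in NPC clones. Prex2 (chr1:10983546-11293763), an exchange factor for the GTPase Rac, had 88.9% and 87.6% in the ES lines. Its NPC clones ran from 1.12 to 63.8% in the XX set and from 0.699 to 84.9% in the XY set, so that 1 clone of each line was read almost wholly from Cast.

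The genes skewed to Cast in both lines divided in the same way. The 60S ribosomal gene Rpl3 (chr15:79908056-79913886) had a 129 share of 7.02% in the XX line and 7.19% in the XY line, and 15.1 ± 3.34% in NPC clones (SD, n = 8). Rpl19 (chr11:97888024-97891807), of the same subunit, had 1.23% and 1.63% in the ES lines and 1.98 ± 0.401% in NPC clones. Ribosomal genes have near-identical copies elsewhere in the genome, so how the authors placed shared reads could set these shares, and the values of Rps19, Rps3a, Rpl3 and Rpl19 are uncertain. Lyrm7 (chr11:54640519-54674093), an assembly factor of respiratory complex III, had 14.4% and 12.5% in the ES lines and 16.3 ± 3.16% in NPC clones. Ulk4 (chr9:120873147-121186653), a member of the Unc-51-like kinase family, had 14.9% and 9.72%, and its NPC clones ran from 14.8 to 47.3%.

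Ssh1, Tbc1d4 and Upk1a were read mostly from Cast in ES cells and from both alleles or from 129Sv in NPC clones. Ssh1 (chr5:114386945-114443816), a phosphatase that activates the actin-severing protein cofilin, had 11835 counts and a 129 share of 11.5% (95% exact interval 10.9 to 12.1) in XX ES cells, and 9412 counts and 14.5% (13.8 to 15.2) in XY ES cells. Its 8 NPC clones lay between 44.1 and 47.4%, with a mean of 45.9 ± 1.2% (SD, n = 8). Neither ES library overlapped the NPC range. Split by allele, the Ssh1 FPKM was 3.51 from 129Sv and 27.0 from Cast in XX ES cells, and 4.01 and 23.7 in XY ES cells. Tbc1d4 (chr14:101838389-102008408), a GTPase-activating protein for Rab proteins, had 10.8% and 9.37% in the ES lines and 52.1 ± 3.55% in NPC clones. Upk1a (chr7:31388111-31397493), a uroplakin of the urothelial membrane, was read mainly from Cast in ES cells and mainly from 129Sv in NPC clones. It had 10.7% in XX ES cells and 13% in XY ES cells, against 83 to 100% in the XX NPC clones and 80.0 to 100% in the XY NPC clones. Upk1a was weakly expressed in the NPC clones, at 0.355 to 1.92 CPM (counts scaled to the library total). Its level was 18.8 CPM in XX ES cells and 45.3 CPM in XY ES cells. The NPC shares of Upk1a thus rest on far fewer counts than its ES shares.

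Over the whole classes, 131 of the 164 genes skewed to 129Sv in both ES lines had at least 20 counts in 4 or more NPC clones. Their mean NPC share was at least 85% in 49 genes, 70 to 85% in 27, 30 to 70% in 47, 15 to 30% in 4 and at most 15% in 4. Of the 103 genes skewed to Cast, 78 were measured in NPC clones, and their mean 129 share was at most 15% in 37, 15 to 30% in 15, 30 to 70% in 22, 70 to 85% in 2 and at least 85% in 2. The median of the NPC means was 77.9% in the shared 129Sv class and 16.0% in the shared Cast class, against 49.9% over the 11160 genes measured in that way. Among genes with at least 500 ES counts, the mean NPC share stayed at or above 85% in 19 of 38 genes of the 129Sv class and at or below 15% in 11 of 23 genes of the Cast class. In both classes some genes were near equal in NPC clones and some were not.

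**Figure D2:**
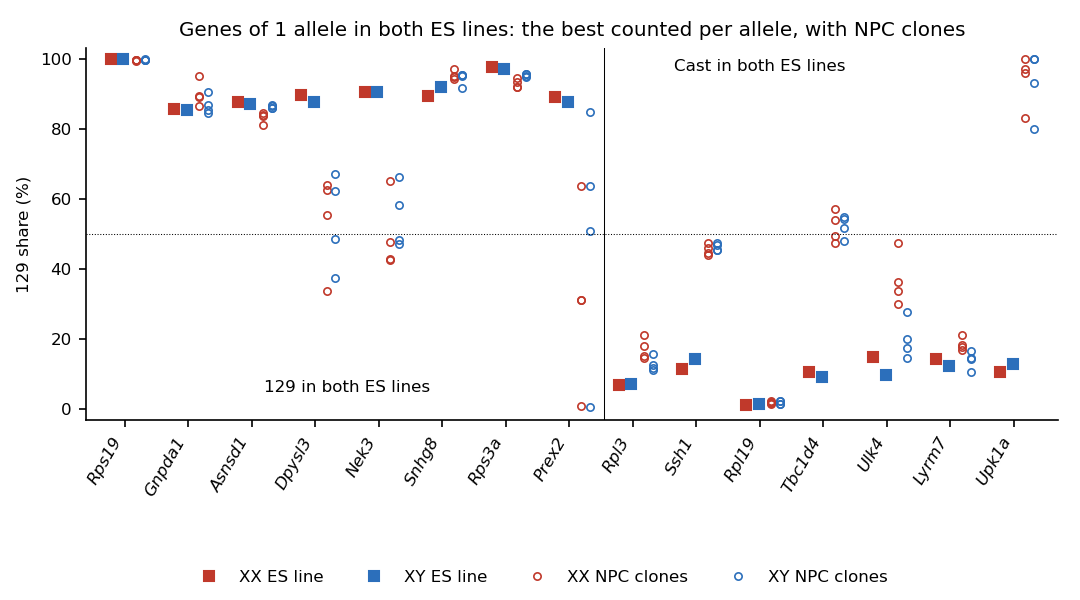
129 share in percent of best covered genes skewed to the same allele in both ES lines, with 1 point for each ES library and each NPC clone. Ribosomal genes such as Rps19 and Rpl19 stay at the same end in all libraries, while Ssh1 and Tbc1d4 lie near 50% in NPC clones.

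In XY ES cells, 10 of 21 measured imprinted genes transcribed from the paternal copy were read mainly from Cast, at a 129 share of at most 30%. Of 27 transcribed from the maternal copy, 8 were read mainly from 129Sv, at 70% or more. These genes were nearer to equal use in XX ES cells. Of 31 listed genes transcribed from the paternal copy, 24 were in the table and 21 are measured here. This list and the maternal one below were chosen with earlier results of these data known, so their counts are descriptions. The 129 share was higher in the XX line than in the XY line for 19 of the 21, where 51.0% of all genes were higher in the XX line. Their median share was 53.0% in the XX line and 36.4% in the XY line, and the median difference was 23.5 points. None of the 21 was at or under 30% in the XX line, where 5.93% of all genes were, and 10 were in the XY line, where 4.91% of all genes were. The limma test described below called 0 of the 18 that it could fit, where it called 2.51% of all genes. Its spread comes from the NPC clones, among which many of these genes varied widely. The median SD was 23.3 points in the 17 measured in all 8 clones, against 3.05 over all genes. The lack of calls therefore does not show that the lines were alike.

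Peg3 (chr7:6656608-6683163), a zinc-finger gene of the placenta and brain, had 22719 counts and a 129 share of 35.7% (95% exact interval 35.0 to 36.3) in XX ES cells, and 42667 counts and 9.05% (8.78 to 9.33) in XY ES cells. Split by allele, its FPKM was 5.87 from 129Sv and 10.6 from Cast in the XX line, and 2.83 from 129Sv and 28.4 from Cast in the XY line. The table also lists Apeg3 over the same place with nearly the same counts, and the 2 transcripts cannot be told apart without strand. Its neighbour Usp29, a ubiquitin protease gene that shares the same control region, had 63.0% from 235 counts and 17.0% from 681 counts. The row of Zim3 lies over that of Usp29, with 159 counts at 86.8% in the XX line and 126 counts at 83.3% in the XY line, so the share of Usp29 itself is uncertain in both lines. Snrpn (chr7:67127387-67285105), listed jointly with Snurf and encoding a splicing factor of the Prader-Willi region, had 56.5% (55.5 to 57.4) in XX ES cells and 16.6% (15.9 to 17.2) in XY ES cells. Mest (chr6:30683506-30698466), a hydrolase gene that the table joins with 2 RefSeq transcripts, had 39.7% and 13.1%. Peg3, Snrpn and Mest were nearer to equal use in the XX line and read mainly from Cast in the XY line. The Mest row overlaps that of Copg2, which had 43.4% and 41.7%.

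The same order held for the retrotransposon-derived Peg10, at 43.7% in the XX line and 20.2% in the XY line, and for the neighbouring sarcoglycan gene Sgce, at 41.3% and 20.2%. Peg12 had 53.0% and 23.3%. The long non-coding RNAs Kcnq1ot1 and Airn, which silence their neighbours on the paternal copy, had 54.2% and 16.0%, and 63.6% and 1.27%. Airn rests on 66 counts in the XX line and 79 in the XY line, and its row overlaps the far deeper Igf2r, at 46.9% and 47.8%. Peg13, another non-coding RNA, which overlaps the deeper Trappc9, had 70.9% from 55 counts and 9.5% from 179 counts. The cell cycle regulator Plagl1 had 78.9% in the XX line and 43.6% in the XY line. In the 5 genes Ndn, Mkrn3, Impact, Zdbf2 and Inpp5f the lines differed by less than 10 points, with shares of 44.9 to 55.1% in XX ES cells and 40.0 to 45.7% in XY ES cells. Zrsr1, whose row shares reads with Commd1, had 50.4% and 36.4%.

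A few paternally transcribed genes did not lie below 50% in the XY line. The growth factor gene Igf2 had 89.5% from 86 counts in the XX line and 59.3% from 369 counts in the XY line. Sfmbt2, a Polycomb gene, had 87.4% in the XX line and 77.1% in the XY line from 17202 and 19133 counts. Dlk1, a Notch-related ligand, had 72.0% in the XX line and 92.6% in the XY line, and Mcts2, listed jointly with its host H13, had 52.2% and 60.2%. Dlk1 and Mcts2 were the 2 paternal genes with a lower share in the XX line. The part of feeder RNA in the shares of these genes was not tested.

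Of 34 listed genes transcribed from the maternal copy, 29 were in the table and 27 are measured here. Their 129 share was lower in the XX line for 18 of the 27, where 48.6% of all genes were lower in the XX line, and the median difference was -5.47 points. Their median share was 49.6% in the XX line and 56.5% in the XY line. At least 70% came from 129Sv for 2 of the 27 in the XX line, near the 8.16% of all genes, and for 8 in the XY line, where 6.98% of all genes did. The wide differences lay in 2 clusters and a few single genes. H19 (chr7:149761437-149764051), a non-coding RNA expressed opposite to Igf2, had a 129 share of 50.7% (95% exact interval 49.5 to 51.9) in XX ES cells and 89.2% (88.5 to 89.8) in XY ES cells. The 3 non-coding RNAs of the Dlk1-Meg3 region all had a lower 129 share in the XX line. Meg3 (chr12:110779204-110809939) had 38.5% (37.3 to 39.8) in XX ES cells and 95.1% (94.5 to 95.7) in XY ES cells. Rian (chr12:110842155-110899921) had 33.3% and 94.6%, and Mirg (chr12:110973191-110987667) had 31.0% and 94.0%. These 3 transcripts were present at similar FPKM in both lines, at 44.4, 78.3 and 15.6 in the XX line and 34.1, 56.6 and 9.77 in the XY line.

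The growth inhibitor Cdkn1c had 39.7% from 146 counts in the XX line and 82.8% from 1306 counts in the XY line, and its FPKM was 1.09 and 7.9. Grb10, an adaptor that restrains insulin signalling, had 67.5% and 91.0%, and Gnas, the stimulatory G protein subunit gene, had 62.0% from 50 counts and 91.4% from 163 counts. The Gnas row overlaps Nespas, which had 5 counts at 20% in the XX line and 119 counts at 93.3% in the XY line, so the reads of the pair cannot be told apart. By contrast Igf2r, the mannose-6-phosphate receptor that clears Igf2, was near equal in both lines, at 46.9% and 47.8%. The same was so for the ubiquitin ligase gene Ube3a, at 46.8% and 52.7%, and for Ppp1r9a, at 56.1% and 56.7%. Copg2, Dhcr7, Cd81, Tssc4 and Trappc9 also lay between 43.4 and 58.4% in the XX line and between 41.7 and 57.4% in the XY line. Whether each listed gene is imprinted in ES cells was not tested, so near-equal use does not show a lost imprint. Kcnq1 had 54.2% and 18.6%, but its row holds nearly the same counts as Kcnq1ot1, which overlaps it, so the pair cannot be told apart. H13 and Commd1 share reads with Mcts2 and Zrsr1 in the same way. The remaining measured members were Ascl2 (34.5% in the XX line and 56.5% in the XY line), Tspan32 (79.2% and 84.9%), Osbpl5 (73.9% and 65.3%), Asb4 (49.6% and 25.9%), Zim1 (37.4% and 44.5%), Blcap (57.0% and 36.4%), Phactr2 (52.1% and 43.3%) and Casd1 (58.2% and 46.4%).

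The share fit called 1 of the 20 maternal genes it could test, where it called 2.51% of all genes. It was the aminophospholipid flippase gene Atp10a (chr7:65913572-66085450). It had 30.8% in the XX line and 45.7% in the XY line, against 51.6 ± 2.14% in NPC clones (SD, n = 8; limma adjusted p = 0.0463). The call was lost when any of 7 of the 8 NPC clones was left out, all but XY clone 3, with adjusted p of 0.0532 to 0.0841. H19, Rian and Grb10 reached 20 counts in 1 NPC clone each, Meg3 in 2 and Mirg in none, so no spread was available for them and they were not tested.

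The spread of imprinted genes among the NPC clones differed from gene to gene. Of 17 paternal genes measured in all 8 clones, 14 had an SD of the 129 share over 10 points, with a median SD of 23.3. Of 17 maternal genes, 6 did, with a median SD of 5.35, and Cd81 and Ube3a had 1.22 and 1.77. Over all genes the median SD was 3.05, and 12.9% were over 10 points. Peg3 had 47.6, 51.6, 49.9 and 45.7% in the XX NPC clones, and 0.00853, 0.083, 51.9 and 0.0156% in the XY NPC clones. The XX clones were thus all near equal use, whereas 3 of the 4 XY clones were read almost wholly from Cast and 1 from both alleles. Snrpn had 0.093, 46.3, 42.1 and 43.0% in the XX clones and 0.67, 0.0633, 0.0673 and 0.0734% in the XY clones. All XY clones and 1 XX clone were read from Cast.

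**Figure D3:**
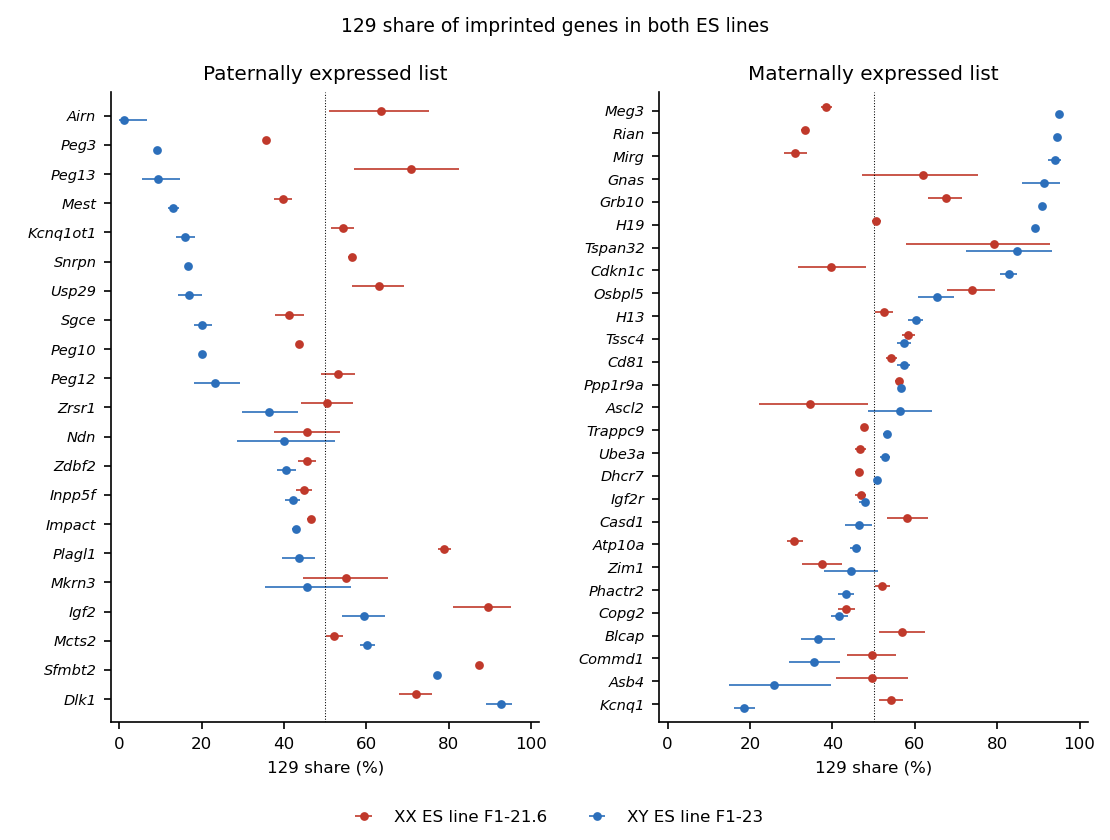
129 share in percent of the measured imprinted genes in the XX and XY ES lines, with 95% exact intervals that cover counting error only, split into genes transcribed from the paternal and from the maternal copy. Paternal genes such as Peg3 and Airn lie lower in the XY line, and the maternal RNAs H19, Meg3, Rian and Mirg lie at 89.2 to 95.1% there against 31.0 to 50.7% in the XX line.

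The genes monoallelic in 1 line only were mostly not imprinted genes, and few had deep coverage. In the XX-only class with at least 100 counts in both lines, the widest gap among rows of 1 gene name was that of Rnf43 (chr11:87476102-87549041), a ubiquitin ligase that removes Wnt receptors. It had 10.4% (95% exact interval 5.65 to 17.1) in XX ES cells and 67.8% (62.1 to 73.3) in XY ES cells. Chdh (chr14:30822186-30853652), a choline dehydrogenase, had 91.3% and 35.2%; its row overlaps Cacna1d. The ATP-gated channel P2rx3 (chr2:84836709-84877016) had 13.3% in the XX line and 68.5% in the XY line (limma adjusted p = 0.0568, and 0.0465 without XX NPC clone 2). The prostaglandin transporter Slco2a1 had 97.0% and 45.0%, the receptor phosphatase Ptprt 91.8% and 39.8%, and the Ras exchange factor Rasgrp3 86.0% and 42.6%. All were weakly expressed. Slco2a1 had 0.55 FPKM in the XX line and 0.249 in the XY line, Ptprt 0.139 and 0.132, and Rasgrp3 0.102 and 0.0759. The RIKEN transcript 4930528A17Rik had 90% in the XX line and 46.9% in the XY line, from 100 and 128 counts; it overlaps Sfrs18, at 49.7% and 45.7%. Of the 10 genes with the widest gaps, 6 were read from 129Sv in the XX line and 4 from Cast.

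The share fit called 3 of these 10. Eml6 (chr11:29643051-29926033), a microtubule-associated protein, had 98.0% (95% exact interval 96.0 to 99.2) in XX ES cells and 49.4% (41.8 to 57.1) in XY ES cells, and its NPC clones lay between 52.4 and 81.7% (limma adjusted p = 0.0275). Its row overlaps the far deeper Rtn4, at 53.9% and 53.8%. The call of Eml6 was lost without XX clone 3 (0.0518) or XY clone 4 (0.0517). The RIKEN transcript 4933432B09Rik (chr15:79440006-79489386) had 0.855% from 117 counts in the XX line and 45.0% from 202 counts in the XY line, against 31.7 to 61.6% in NPC clones (limma adjusted p = 0.0127). Sox6 (chr7:122614384-123182258), a transcription factor of neural and cartilage development, had 15.0% (8.65 to 23.5) from 100 counts in XX ES cells and 59.1% (54.7 to 63.5) from 499 counts in XY ES cells. Its NPC clones averaged 47.7 ± 3.68% (SD, n = 8; limma adjusted p = 0.0021). Sox6 was weakly expressed in ES cells, with 1.48 CPM (counts scaled to the library total) in the XX line and 7.04 in the XY line, against 597 to 1162 in NPC clones.

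In the XY-only class, Rian and H19 were among the 10 rows of 1 gene name with the widest gaps, as described above. Rows that join several names or carry none are not in that count, and among the joined rows Mirg and Meg3 had gaps of -63.0 and -56.6 points. St8sia5 (chr18:77424586-77494189), a sialyltransferase, had 35.5% in the XX line and 1.78% (95% exact interval 0.368 to 5.10) in the XY line. The dynein-arm assembly factor Dyx1c1 had 46.0% and 12.6%, the synaptic vesicle protein Sv2c 32.6% and 5.26%, and Prorsd1 55.0% and 12.9%. Towards 129Sv, the thioesterase Acot6 had 50% and 86.4%, 5830416P10Rik 63.4% and 96.9%, and LOC100499420 59.9% and 86.7%. LOC100499420 passed the share fit only without XX NPC clone 1 among the fits that left out a clone (limma adjusted p = 0.00645). Txlnb (chr10:17515721-17567808), a taxilin of muscle, had 37.7% (32.7 to 42.9) in XX ES cells and 9.10% (7.10 to 11.5) in XY ES cells, and it passed the share fit against an NPC mean of 63.3 ± 4.69% (SD, n = 8; limma adjusted p = 0.034). That call was lost without XX clone 3 or XY clones 1 or 4 (0.0512 to 0.0644). The NPC clones of Txlnb lay above both ES lines.

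Inpp4b (chr8:83866419-84652010), a phosphatase that removes the 4-phosphate of phosphoinositides, was the only gene with at least 100 counts that was monoallelic for opposite alleles. All of its 191 counts in the XX line came from 129Sv (95% exact interval of the share 98.1 to 100), and 9 of its 408 counts did in the XY line, a share of 2.21% (1.01 to 4.15). Its NPC clones had 41.7, 45.6, 45.9 and 50.4% in the XX set and 43.6, 53.6, 49.7 and 28.5% in the XY set. No clone was near either ES line, and the difference between the ES lines passed the share fit (limma adjusted p = 0.000689). The gene was weakly expressed in ES cells, with 2.82 CPM in the XX line and 5.76 in the XY line, against 139 to 635 in NPC clones. The other 5 opposite genes, Dgkb, Gm12824, Aqp1, Eps8l1 and Robo3, had under 100 counts in at least 1 line.

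The line-specific differences of ES cells were set beside those between the NPC clones of the same lines. The ES differences chose these genes, so their size is a description. Of the XX-only genes, 131 had 20 counts in at least 2 NPC clones of each line, and the NPC difference had the sign of the ES difference in 58 (44.3%). The same was so for 39 of 70 XY-only genes (55.7%) and for 5647 of all 11063 genes (51.0%). The median absolute difference between NPC lines was 6.85 points in the XX-only genes and 5.9 in the XY-only genes, against 36.3 and 37.2 points between the ES lines. The mean NPC share was between 30 and 70% in 94 of the 131 XX-only genes (71.8%) and 49 of the 70 XY-only genes (70%), against 92.7% of all genes.

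The difference in 129 share between the ES lines was tested with limma on arcsine square roots of the shares, fitted over the 4 groups of 10 libraries. The spread came from the NPC clones, since each ES line has 1 library, so the test assumes that ES libraries vary as those clones do. It called 278 of 11080 genes (2.51%), with 151 shares higher and 127 lower in the XX line. Of these 278, 271 had fewer counts in ES cells than the median of their NPC clones, where 65.0% of all genes did, and the spread of deeper clones does not hold the counting error of shallower ES libraries. Among genes with at least 500 counts in both ES libraries, 114 of 8202 passed. The same limit holds there, since 107 of the 114 had fewer counts in ES cells than the median of their NPC clones. Of all 8202 genes, 60.1% did. When p-values were adjusted over those genes alone, 65 passed, 36 higher and 29 lower in the XX line. Between the NPC lines the same fit called 5 of 11058 genes (0.0452%), with 1009 at an unadjusted p under 0.05.

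The named genes with at least 500 counts were chosen after their values were seen, as the 12 called with the widest difference. Sash1 (chr10:8441971-8605868), a signalling scaffold protein, had 7725 counts and a 129 share of 76.6% (95% exact interval 75.6 to 77.5) in XX ES cells, and 4305 counts and 28.1% (26.8 to 29.5) in XY ES cells. It differed in the same direction between NPC lines, with 54.6, 52.5, 56.4 and 53.8% in the XX clones and 18.1, 16.0, 19.1 and 14.7% in the XY clones. The NPC clones of the 2 lines did not overlap, and limma gave an adjusted p of 7.27e-05 for the ES lines and 2.14e-05 for the NPC lines. Split by allele, the ES FPKM of Sash1 was 9.47 from 129Sv and 2.90 from Cast in the XX line, and 1.81 and 4.62 in the XY line. Sash1 was the only one of the 12 that also passed in NPC clones.

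For the others the limma test did not pass between the NPC lines. The clones of Itpkb and Plce1 were nonetheless separate, at 49.2 to 51.1% in the XX clones and 45.8 to 48.3% in the XY clones for Itpkb, and at 37.6 to 45.7% and 32.6 to 35.8% for Plce1. Itpkb (chr1:182260430-182354931), a kinase of inositol trisphosphate, had 24.2% in the XX line and 66.9% in the XY line, with 48.4 ± 1.80% in NPC clones (SD, n = 8; limma adjusted p = 5.99e-06). Klhl23 (chr2:69659923-69674708) had 68.3% and 31.7%, with 54.3 ± 2.54% in NPC clones (limma adjusted p = 0.000636). Both lines thus deviated from the NPC level in opposite directions. Lrrk2 (chr15:91502669-91646555), the kinase mutated in familial Parkinson disease, had 69.0% in the XX line and 34.5% in the XY line, against 25.5 ± 3.89% in NPC clones (limma adjusted p = 0.00335). Zufsp (chr10:33638960-33671068), a deubiquitinase, had 23.1% and 57.2%, Nrxn2 (chr19:6418717-6533443), a presynaptic neurexin, 30.6% and 60.9%, and Zhx3 (chr2:160591687-160698726), a zinc-finger homeobox gene that overlaps Plcg1, 40.5% and 69.8%. Plce1 (chr19:38555530-38859590), a phospholipase C activated by Ras, had 49.8% in the XX line and 22.4% in the XY line. Sash1 and the genes of this group from Itpkb to Plce1 kept their calls under all 11 alternatives tried for the share fit.

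Bend6 had 18.8% in the XX line and 54.4% in the XY line (limma adjusted p = 0.0478), and it lost the call in 6 of the 8 fits that left out an NPC clone, those other than XY clones 1 and 2 (adjusted p 0.0503 to 0.0908). The protease gene Prss23 had 97.8% and 71.3% (limma adjusted p = 0.0236) and lost its call where only the ES and XY NPC libraries gave the spread (adjusted p = 0.123). The unnamed RefSeq transcript NR_045889 lies within App and had 71.6% in the XX line and 45.9% in the XY line. NR_040717, which overlaps 9230114K14Rik, had 50.5% and 75.8%. The counts of these transcripts cannot be told apart from those of the overlapping genes, and their FPKM was at or near 0. NR_045889 had 0.0366 FPKM in the XX line and 0 in the XY line, and NR_040717 had 6.57e-50 and 2.68e-105. Both lost their calls when single NPC clones were left out: NR_045889 without XX clones 2 or 3 or XY clones 2 or 4 (limma adjusted p 0.0556 to 0.0629), and NR_040717 without XX clones 3 or 4 or any XY clone (0.0512 to 0.0604).

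Genes of fibroblasts were read mostly from 129Sv in the ES libraries. Cultures grown on feeders can carry feeder RNA, and the strain of the MEF layers is not given in the sources used here. Of 36 listed fibroblast genes, 30 were in the table and 29 are measured here. The list was chosen with earlier results of these data known, so its counts are descriptions. At least 70% of counts came from 129Sv for 17 of the 29 in the XX line, where 8.16% of all genes reached that share, and for 11 in the XY line, where 6.98% did. The median share was 74.6% in the XX line and 64.2% in the XY line. The mean over NPC clones was at least 70% for 3 of the 29 and had a median of 52.2%.

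Postn (chr3:54165029-54194963), a matrix protein of connective tissue, had 712 counts in XX ES cells, all from 129Sv, and 1611 counts with a share of 85.1% (95% exact interval 83.3 to 86.8) in XY ES cells. The chemokine gene Ccl2 had 100% and 97.0%, and Igfbp7, a secreted growth factor binding protein, had 99.8% and 90.1%. The collagen crosslinker Lox (chr18:52676892-52689362) had 96.0% and 92.6%, whereas the 5 NPC clones that measured it lay between 1.49 and 30%. The major fibroblast collagen Col1a1 had 97.3% in the XX line and 61.0% in the XY line, the matrix protein Thbs2 97.4% and 82.7%, the actin-binding Tagln 91.4% and 54.5%, and Igfbp4 95.2% and 72.8%. Other members were nearer to equal use. Fn1, fibronectin, had 51.7% in the XX line and 51.8% in the XY line at 233 and 224 FPKM. Vim, an intermediate filament protein, had 73.5% and 67.5%, against 50.5 to 54.6% in NPC clones. Col6a1, at 25.6% and 33.0%, was the one listed gene at or under 30% in the XX line. The rows of Igfbp7 and Tagln overlap those of Polr2b and Pcsk7, which had shares of 54.0 and 42.6% in the XX line and 53.0 and 47.6% in the XY line.

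The levels of the same list were lower in the XX line. The summed FPKM of the 29 genes was 586 in the XX line and 759 in the XY line, against 1180 to 1950 in the NPC clones, and 24 of the 29 had a lower FPKM in the XX line, where 53.8% of all genes did. Scaled by edgeR's trimmed mean of M values (TMM), 23 did, where 6198 of all 11746 genes did. The FPKM of Col1a1 was 10.2 in the XX line and 24.9 in the XY line. Of 18 defining fibroblast markers 15 were in the table, and none was at 0 in ES cells. The lowest were Lum, at 0.0762 FPKM in the XX line and 0.0832 in the XY line, and Dcn, at 0.235 and 0.36. Acta2 had 17.9 and 60.2 FPKM, Thy1 10.6 and 11.2, Col6a1 6.35 and 6.59, and Col3a1 1.39 and 3.28, where the NPC medians were 0.346, 0.691, 1.05 and 0.117. The highest NPC clone had 24.2 FPKM of Col3a1. Other markers stood below the NPC median in both ES lines. Fbn1 had 1.44 and 1.45 FPKM against 17.0, Vim 163 and 133 against 835, and Prrx1 1.29 and 1.29 against 3.43. The same was so for Pdgfra, at 0.432 and 0.427 against 0.523, and for Lum, with an NPC median of 0.128. The part of feeder RNA in any allele share was not tested, and in bulk libraries fewer cells of a type and less RNA per cell cannot be told apart. Timp2 (chr11:118162375-118216931), a metalloprotease inhibitor, was the one member called by the share fit. It had 88.7% in the XX line and 81.0% in the XY line, against 52.2 ± 1.52% in NPC clones (SD, n = 8; limma adjusted p = 0.0123), and lost the call where only the ES and XY NPC libraries gave the spread (0.0667).

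**Figure D4:**
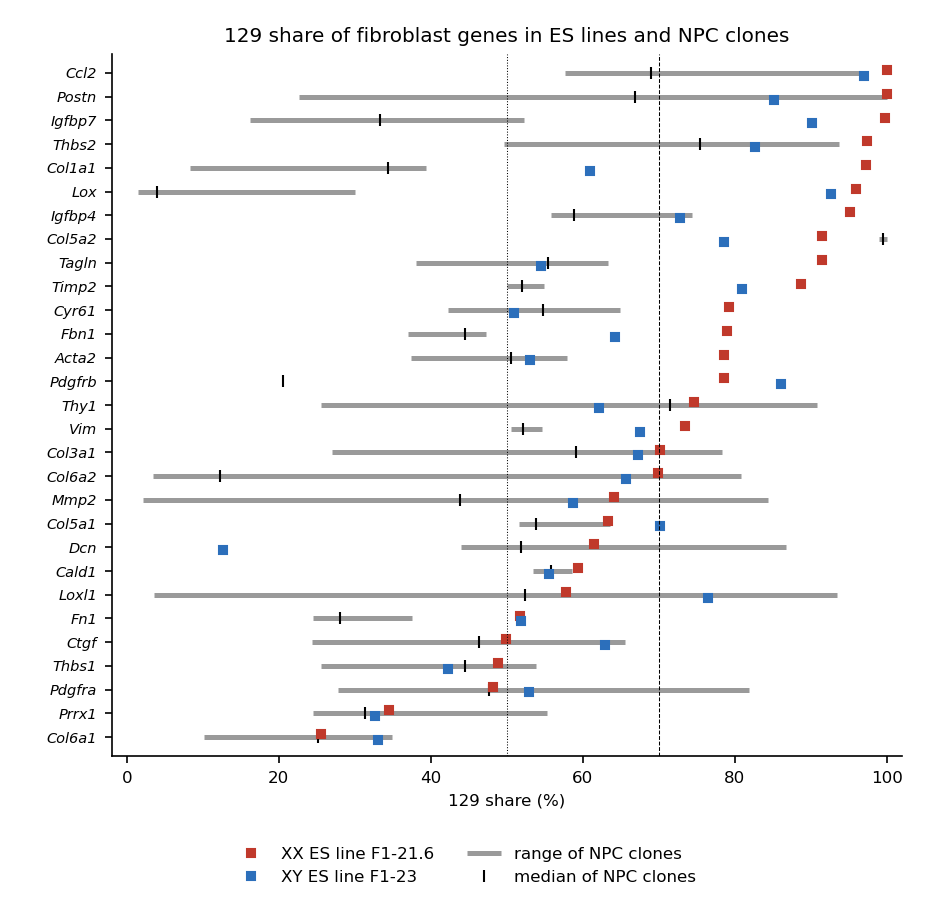
129 share in percent of the 29 measured fibroblast genes, 1 line a gene, with a square for each ES library and a bar for the range of the NPC clones with a tick at their median. Most squares lie right of 50%, with medians of 74.6% in the XX line and 64.2% in the XY line.

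Expression was compared between the ES lines with edgeR's quasi-likelihood test on counts summed over both alleles, again with the spread of the NPC clones. It called 8 of 11746 genes (0.0681%), all lower in the XX line, and 757 had an unadjusted p under 0.05. Between the NPC lines it called 77 genes (0.656%), 48 higher and 29 lower in the XX clones. That count was 0 to 250 when single clones were left out and 1673 by DESeq2. Fam38b (chr18:63169867-63546904), the older symbol of the mechanosensitive channel gene Piezo2, had 1.33 CPM in XX ES cells and 31.9 CPM in XY ES cells, a log2 fold change of -4.58 (SE 0.365, edgeR adjusted p = 0.0107). In NPC clones the order was the other way round, with 182, 149, 134 and 149 CPM in the XX clones and 66.2, 65.6, 51.5 and 45.1 CPM in the XY clones (log2 fold change 1.43, edgeR adjusted p = 0.0204). The groups of clones did not overlap. The difference between the ES and the NPC contrast was -6.01 on the log2 scale (edgeR interaction, adjusted p = 0.00298), and Fam38b was the 1 gene of 11746 that passed that test.

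Sema6a (chr18:47404784-47528522), a transmembrane semaphorin, had 1.49 CPM in the XX line and 45.4 CPM in the XY line (log2 fold change -4.93, SE 0.636, edgeR adjusted p = 0.0403). Prtg (chr9:72655081-72765114), a receptor of the early neural tube, had 2.19 and 20.5 CPM (-3.23, SE 0.434, adjusted p = 0.0470), and was the one gene of these whose XY ES level exceeded all NPC clones, which had 2.99 to 4.81 CPM. Gramd1c (chr16:43980463-44063533), a sterol transfer protein, had 0.931 and 9.69 CPM (-3.38, SE 0.463, adjusted p = 0.0470). The row that joins the zinc-finger gene Sall2 with a second transcript had 7.88 and 54.3 CPM (-2.79, SE 0.350, adjusted p = 0.0403). The log2 fold change was -2.22 for Tmcc3 (edgeR adjusted p = 0.0470), -1.69 for the adenylyl cyclase Adcy6 (0.0476) and -1.55 for the phospholipid enzyme Ept1 (0.0476). Their FPKM in the XX line was 1.22, 0.664 and 1.26, against 3.94, 1.88 and 4.26 in the XY line.

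These calls depended on which NPC clones gave the spread. Leaving out 1 clone at a time gave 14, 0, 1 and 10 calls without XX clones 1 to 4, and 1, 1, 2 and 2 calls without XY clones 1 to 4. The calls were then not all lower in the XX line: 5 of the 14, 3 of the 10 and 1 of the 2 without XY clone 3 were higher. Fam38b lost its call without XX clone 2 (edgeR adjusted p = 0.0515) and where only the ES and XY NPC libraries were used (0.0653). DESeq2's Wald test on the same counts called 236 genes, 73 higher and 163 lower in the XX line. As a plain description, FPKM + 1 was at least 2-fold higher in the XX line for 74 genes (0.63%) and at least 2-fold lower for 205 (1.75%). With a pseudocount of 0.1 these were 239 and 502 genes, and on CPM 216 and 432.

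The listed gene groups differed in direction but no member of them passed edgeR. These lists were chosen with earlier results of these data known, so their counts are descriptions. Feedback genes and targets of MAP kinase signalling had a lower FPKM in the XX line in 16 of 17 measured members of 20 listed, against 53.8% of all genes, with a median log2 difference of -0.55 against -0.02 over all genes. Scaled by TMM, 14 of the 17 were lower, where 6198 of all 11746 genes were. Dusp6, the phosphatase of ERK, had 11.1 FPKM in the XX line and 27.0 in the XY line (edgeR adjusted p = 0.0867). The early response gene Egr1 had 2.52 and 7.0 FPKM, Phlda1 2.15 and 6.4, Dusp4 18.9 and 37.7, and the cyclin gene Ccnd1 22.5 and 42.6. The ETS factor Etv1, at 3.85 and 3.41 FPKM, was the exception. Dusp6 also passed the share fit, with 55.5% in the XX line and 48.1% in the XY line (limma adjusted p = 0.0369), but lost that call whichever NPC clone was left out (0.0516 to 0.0721).

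Genes of primed pluripotency and early mesoderm were lower in the XX line in 6 of 7 measured members by FPKM, of 16 listed, where 53.8% of all genes were. By TMM 7 of 7 were lower, where 6198 of all 11746 genes were. Fgf5, the marker of the epiblast after implantation, had 0.334 FPKM in the XX line and 12.7 in the XY line (edgeR adjusted p = 0.621). The mesoderm factor T (chr17:8626260-8635361) had 2.34 and 3.94 FPKM, with a 129 share of 3.56% (95% exact interval 2.38 to 5.10) in XX ES cells and 41.2% (38.7 to 43.8) in XY ES cells. The share difference of T did not pass limma's test (adjusted p = 0.061). It passed without XX NPC clones 1 or 2 (0.0436 and 0.0462), on log2 odds (0.0193) and with the ES and XY NPC libraries alone (0.0471). Wnt3, a ligand of primitive streak formation, had 0.158 FPKM in the XX line and 0.872 in the XY line. Sox4, also on this list, passed the share fit with 61.9% and 47.5% (limma adjusted p = 0.0413) and lost the call without XX clones 2 or 3 or any XY clone (0.0713 to 0.0784). Of 11 measured pluripotency genes of 33 listed, 8 had a higher FPKM in the XX line, where 5378 of all 11746 genes did. By TMM 9 were higher, where 5548 of all genes were. Tcfcp2l1, a factor of the naive state, had 139 FPKM in the XX line and 48.9 in the XY line. Klf4 had 77.0 and 30.2 FPKM, and Esrrb 227 and 187. The 3 lower genes were Lin28b, an RNA-binding repressor of let-7 microRNAs, at 3.66 FPKM in the XX line and 8.94 in the XY line, Trim71 at 49.5 and 50, and Rif1 at 56.9 and 62.3. Lin28b was the 1 of them at least 2-fold lower.

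Of 19 measured genes of DNA methylation and its removal, of 22 listed, 13 had a lower FPKM in the XX line, where 53.8% of all genes did, and 11 by TMM, where 6198 of 11746 did. The de novo methyltransferase genes Dnmt3a and Dnmt3b had 17.6 and 41.8 FPKM in the XX line against 38.6 and 113 in the XY line (edgeR adjusted p = 0.35 and 0.407). The maintenance enzyme gene Dnmt1 had 101 FPKM in the XX line and 109 in the XY line, its partner Uhrf1 184 and 148, and the 5-methylcytosine oxidase gene Tet1 55.4 and 51.2. Zfp57 had 141 and 88.8 FPKM. Of 22 listed genes known to rise in hypomethylated ES cells and the germ line, 7 were measured. By FPKM 4 of the 7 were higher in the XX line, near the 5378 of all 11746 genes. By TMM 6 of the 7 were, where 5548 of all genes were. The differences were small, with a median log2 difference by TMM of 0.07 against -0.03 over all genes. Ddx4 had 7.76 FPKM in the XX line and 6.78 in the XY line, Sycp3 16.9 and 21.9, and Tuba3a 31.6 and 20.5.

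**Figure D5:**
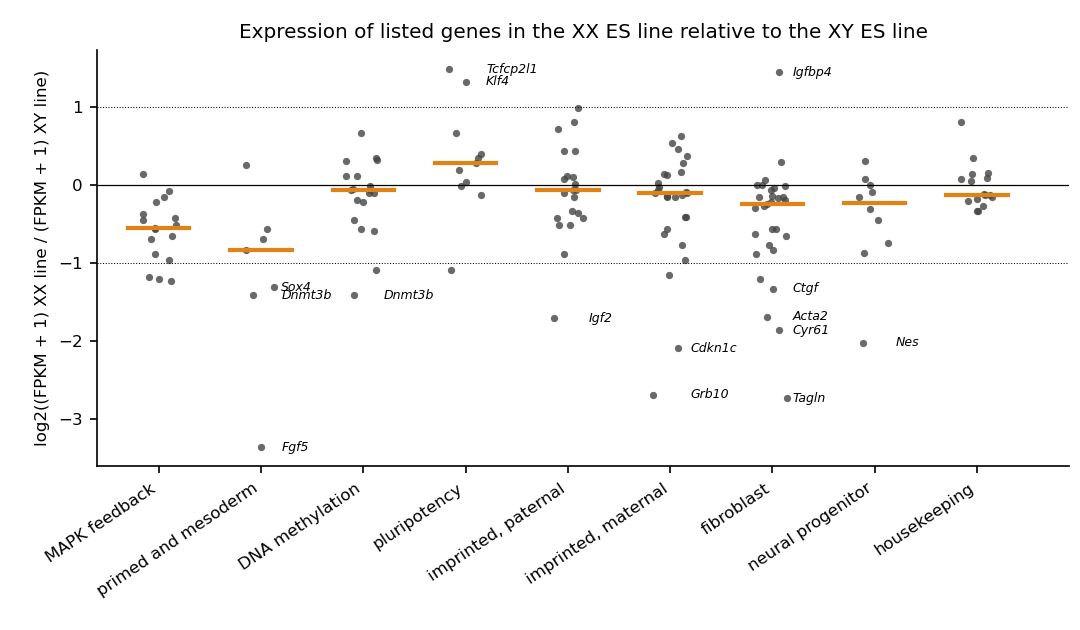
Log2 difference of FPKM + 1 (XX minus XY ES line) for each measured member of 9 gene lists, 1 point a gene, with an orange bar at the median of each list and dotted lines at a 2-fold difference. Feedback genes of MAP kinase signalling lie mostly below 0 with a median of -0.55, and housekeeping genes centre near the level of all genes.

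Endoderm genes had a lower FPKM in the XX line in 6 of 11 measured members of 19 listed, near the 53.8% of all genes, with Lama1 at 23.5 FPKM in the XX line and 17.9 in the XY line, Lamb1 at 31.6 and 43.8, and Col4a1 at 12.0 and 14.2. Antigen presentation genes were lower in all 7 measured members of 20 listed, with a median log2 difference of -0.43, and with the light chain gene B2m at 20.5 and 25.9 FPKM, the peptide transporter gene Tap1 at 1.64 and 2.77, and Tapbp at 13.3 and 19.3. Housekeeping genes were lower in 9 of 16 measured members of 20 listed, near the 53.8% of all genes. Their median log2 difference of FPKM + 1 was -0.12. With DESeq2 size factors 8 of the 16 were lower, where 6014 of all 11746 genes were. Rpl13a had 1880 FPKM in the XX line and 2360 in the XY line, Tubb5 934 and 1060, and Sdha 131 and 119.

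Neural genes had a lower FPKM in the XX line in 7 of 10 measured members of 16 listed, where 53.8% of all genes did. By TMM 8 were lower, where 6198 of all 11746 genes were. The share fit called 3 of the 10, where it called 2.51% of all genes, and all of them were weak in ES cells beside NPC clones. Of the 278 calls of that fit, 271 lay in genes with fewer counts in ES cells than the median of their NPC clones. The measured neural genes summed to 31.0 FPKM in the XX line and 44.5 in the XY line, against 938 to 1280 in NPC clones. The 3 calls are therefore no measure of a difference particular to neural genes. Ptprz1 (chr6:22824607-23002916), a receptor phosphatase of glial precursors, had 36.6% (95% exact interval 31.2 to 42.3) in XX ES cells and 12.8% (10.5 to 15.3) in XY ES cells, against 55.0 ± 0.882% in NPC clones (SD, n = 8; limma adjusted p = 2.94e-05), and it kept the call under all 11 alternatives. The glutamate transporter gene Slc1a3 had 20.7% and 31.8%, against 43.7 to 49.3% in NPC clones (limma adjusted p = 0.0343), and lost the call without XX clone 3 or XY clones 1 or 4 (0.0577 to 0.0662). Bcan, a brain proteoglycan, had 84.9% from 73 counts in the XX line and 40.0% from 140 counts in the XY line (limma adjusted p = 0.0306), and lost the call without any 1 of the XY clones (0.0606 to 0.0647). In Ptprz1 and Slc1a3 both ES lines lay below every NPC clone.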

How the data were processed

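RNA was measured by polyadenylated RNA-seq in 10 libraries: 2 ES lines and 8 NPC clones. Repeat libraries of 2 clones were not analysed here. The authors deposited 1 table with, per feature and library, whole-number allele-assigned counts, the 129 share of those counts as a fraction, and FPKM. Per the submitters' processing notes, TopHat 1.4.0, Cufflinks 1.3.0, SAMtools and mm9 were used; the settings, the SNP list and whether a read over several SNPs counts once are not given in the sources used here, so the exact (Clopper-Pearson) 95% intervals cover counting error only and may be too narrow. Counts times shares gave whole numbers within 0.01 for all 28830 autosomal ES values.

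Classes used a minimum of 20 counts. Shares were tested with limma 3.58.1 (arcsine square root, trend and robust empirical Bayes) and counts with edgeR 4.0.16 (quasi-likelihood, TMM, filterByExpr, common biological coefficient of variation 0.471), in R 4.3.3, with 4 groups and Benjamini-Hochberg adjustment over all genes fitted; DESeq2 1.42.0 was an alternative. The labels do not say that NPC clones are independent cultures beyond being clones, so p-values measure the spread between these libraries. ES and XY NPC libraries carry 1 label prefix (GUR) and XX NPC libraries another (GEI), so line and library set cannot be told apart among NPC clones; a fit on the GUR libraries alone was an alternative. The scripts were tested on simulated data. FPKM folds used a pseudocount of 1, which understates changes of low genes.

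Named genes were the 8 best counted per allele of the shared classes, the 10 widest gaps per line with 100 counts (rows of 1 gene name only for both), all imprinted members, called expression genes, and list members that passed or had the largest counts; 1 gene of the shared classes is not reported here. Other list members, Sall2 and the 12 share genes with 500 counts were chosen after their values were seen. The members and lists were chosen with earlier results of these data known. Promoters came from RefSeq (GRCm38.p6), matched by symbol.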

Additional observations from a re-analysis of the deposited data

Results flagged for a closer look

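In 8 of the 135 groups of 4 NPC clones examined, 1 clone stood apart from the other 3 by Dixon's ratio, where chance gives about 1 in 20 groups. Peg3 had a 129 share of 51.9% in XY NPC clone 3, with the other 3 XY clones between 0.00853 and 0.083%. Snrpn with Snurf had 0.093% in XX NPC clone 1, with the other XX clones between 42.1 and 46.3%, and 0.67% in XY NPC clone 1, with the others between 0.0633 and 0.0734%. Prorsd1 had 77.4% in XX NPC clone 1 against 41.0 to 44.9% in the others, and LOC100499420 had 78.1% there against 91.2 to 92.9%. Snhg8 had 91.7% in XY NPC clone 1 against 94.9 to 95.4%, and Plce1 had 35.8% in XY NPC clone 4 against 32.6 to 32.7%. Prtg had 4.81 CPM in XY NPC clone 2 against 3.96 to 4.03 CPM. No explanation was tested.

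The difference between the XX and XY lines was not the same in ES cells as in NPC clones for the genes below, by the interaction term of the same fits. Most were named for their ES difference, so their number is no measure of how common this is. For Fam38b expression it was -6.01 on the log2 scale (edgeR adjusted p = 0.00298). For the 129 share, Itpkb differed by -42.7 points in ES cells and 2.92 in NPC clones (limma adjusted p = 9.27e-06), Klhl23 by 36.6 and -2.25 (0.00131), Lrrk2 by 34.4 and 5.64 (0.0183), and Zufsp by -34.0 and -0.849 (0.00683). Nrxn2 differed by -30.3 and 0.369 points (0.00963), Zhx3 by -29.3 and 2.42 (0.000302), Plce1 by 27.4 and 7.6 (0.0421), Prss23 by 26.5 and -0.743 (0.0391) and NR_045889 by 25.7 and -1.71 (0.0462). Of the genes monoallelic in at least 1 line, Inpp4b differed by 97.8 points in ES cells and 2.08 in NPC clones (limma adjusted p = 0.00169), Dgkb by 95.2 and -2.34 (0.000794), Eps8l1 by -95.2 and 8.24 (0.00805), Eml6 by 48.6 and -9.63 (0.029), 4933432B09Rik by -44.2 and 14.4 (0.0101) and Sox6 by -44.1 and -0.487 (0.00515). Of the genes called for expression, the share of Gramd1c differed by -32.9 and 6.1 points (0.0123), that of Adcy6 by 18.7 and 0.0667 (0.00683) and that of Sema6a by -15.5 and 0.138 (0.0391). Of list members, Ptprz1 differed by 23.8 and -0.822 points (5.77e-05), Timp2 by 7.7 and -2.32 (0.0103) and Dusp6 by 7.38 and -0.933 (0.0423). Over all genes the interaction passed for 209 of 11058 shares and 1 of 11746 expression values.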

How the results depend on the processing

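The class counts followed the depth and the limits set. With a minimum of 50, 100 and 500 counts the shared Cast class held 59, 46 and 23 genes, the XX-only class 91, 48 and 7, the XY-only class 47, 26 and 9, and the opposite class 1, 1 and 0. The shared 129Sv class held 88 and 41 genes at 100 and 500 counts. With a major allele of at least 95% the counts of shared 129Sv, shared Cast, XX-only, XY-only and opposite genes were 69, 47, 65, 29 and 3, and with an FPKM of at least 1 in both lines 68, 45, 28, 26 and 0. With biallelic set at 60% or less, the XX-only class held 86 genes and the XY-only class 35. The ES share fit called 65 genes when adjusted over those with 500 counts, an alternative added after seeing the data, and 212 to 299 when single NPC clones were left out. On log2 odds the NPC share fit called 2 genes, and without single clones 5 to 15. The ES expression fit called 0 genes on the ES and XY NPC libraries alone (1268 at an unadjusted p under 0.05), 236 by DESeq2 and 0 to 14 without single clones. NPC expression gave 1673 calls by DESeq2 and 0 to 250 without single clones. FPKM folds of at least 2 numbered 741 with a pseudocount of 0.1 (239 higher and 502 lower in the XX line) and 648 on CPM (216 higher and 432 lower). No class count, fit count or single gene of these alternatives changed sign, but calls differed in direction: 5 of the 14 expression calls without XX NPC clone 1 were higher in the XX line, where 0 of the 8 were. Single members of the listed groups also changed direction between FPKM and TMM, so that 14 in place of 16 MAP kinase genes and 11 in place of 13 DNA methylation genes were lower in the XX line, and 6 in place of 4 germ line genes higher. The causes were not tested. No paired analysis was possible because each ES line has 1 library and the replicate numbers of the NPC clones are accession order only. Depth limits the classes. At 20 to 49 counts, counting alone would give a median absolute difference of 6.53 points between the lines, and single genes can differ by more. No ES line has a replicate, and whether ES libraries vary as NPC clones do was not tested.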

Other observations

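The largest FPKM differences between the ES lines, chosen after their values were seen, lay in genes of varied roles, and none of those named here passed edgeR's test. Higher in the XX line were Rcsd1, which binds actin capping protein, at 12.8 FPKM in the XX line and 2.13 in the XY line, Aard at 41.5 and 8.9, the transglutaminase gene Tgm2 at 25.8 and 6.06, and the epoxide hydrolase gene Ephx1 at 29.0 and 7.75 (edgeR adjusted p = 0.0625). Lower in the XX line were the guanylate-binding protein gene Gbp2, at 0.622 FPKM in the XX line and 12.2 in the XY line, the lysophospholipase gene Enpp2 at 0.241 and 6.09, Crmp1, a phosphoprotein of axon guidance, at 2.9 and 19.8, the carbonic anhydrase gene Car2 at 5.11 and 28.0, and the endocytic receptor gene Lrp2 at 0.437 and 5.25. The imprinted gene Grb10 was among them, at 5.12 and 38.6 FPKM. Allele use went its own way in several of these: the 129 share of Rcsd1 was 31.0% in the XX line and 10.2% in the XY line, that of Gbp2 24.1% and 52.4%, and that of Car2 98.3% and 92.7%.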
